A study of Arabidopsis thaliana with 12 samples.

Results

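AT4G31930, annotated to the mitochondrial glycoprotein family, and AT4G17650, annotated as a COQ10-like protein of the polyketide cyclase family, are 2 of the 691 Arabidopsis thaliana genes that had an array probe annotated to that gene alone. Each had 1 such probe and 0 probes shared with other genes, so no choice between probes was needed. Both were picked because they differed strongly between the groups of this study, so that difference is described below without a test. AT4G31930 was dimmer after MS medium with sucrose than in water, and AT4G17650 was brighter.

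Total RNA of wild-type plants of the ecotype Wassilevskija was measured in 12 samples. In 6 of them the plants had been kept for 6 h in MS (Murashige and Skoog) medium, a mineral salt mixture for tissue culture, with 60 mM sucrose. The other 6 are labelled as water, with no time given, so the groups differ by the salts, the sugar and possibly by time and handling, which cannot be told apart. The labels state neither plant organ, plant age nor array type, nor whether samples came from separate plants, so the spread between samples may be technical.

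Proteins of the mitochondrial glycoprotein family resemble yeast Mam33 and human p32 (C1QBP), acidic proteins of the mitochondrial matrix that have been tied to mitochondrial translation and to the upkeep of the respiratory chain. In yeast, Coq10 is a lipid-binding protein with a START-like fold that binds ubiquinone, the small lipid that carries electrons between complexes of the respiratory chain, and is needed for ubiquinone to work efficiently in respiration. Polyketide cyclase-like proteins share that fold, a pocket that holds hydrophobic molecules. These roles come from yeast and human proteins, and the annotation of the Arabidopsis genes rests on family resemblance.

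Values are linear spot intensities in arbitrary units, as deposited, for 3439 probes. An intensity of exactly 0 has no stated meaning, and a gene with it is called listed at 0. The median intensity of a sample was 0.309 to 0.339 after MS with sucrose and 0.171 to 0.188 in water, so each gene is also given by its place within its own sample, which no rescaling of a whole sample can change. Log2 differences are MS with sucrose minus water, from log2(intensity + 0.0718) after quantile normalization, and understate the change of dim probes. In bulk RNA, fewer cells of a type and less RNA per cell cannot be told apart. The labels name no organ. Of 12 green tissue genes, LHB1B2, a light-harvesting chlorophyll protein gene, had a probe of its own, and it was brighter than 98.4% to 98.9% of probes after MS with sucrose and than 98.5% to 99.2% in water. None of 6 root genes had one.

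AT4G31930, the mitochondrial glycoprotein-family gene, had intensities of 0.329, 0.00, 0.235, 0.252, 0.286 and 0.236 in MS with sucrose samples 1 to 6, against 1.19, 0.785, 0.936, 0.739, 1.08 and 0.824 in water samples 1 to 6. The groups did not overlap, and the gap between the highest sample of MS with sucrose and the lowest water sample was 0.410 intensity units. Sample 2 of MS with sucrose was listed at 0 and stood apart, while the other 5 of that group lay within 0.235 and 0.329. The mean was 0.223 ± 0.115 after MS with sucrose and 0.926 ± 0.178 in water (SD, n = 6 each), so the mean in water was 4.15-fold that after MS with sucrose. By medians, which the sample listed at 0 moves little, the same ratio was 3.61-fold.

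AT4G17650, the COQ10-like gene, had intensities of 1.82, 1.85, 1.90, 1.86, 2.67 and 2.73 in MS with sucrose samples 1 to 6, against 0.411, 0.465, 0.469, 0.436, 0.460 and 0.454 in water samples 1 to 6. Again the groups did not overlap, here with a gap of 1.35 intensity units between the lowest sample of MS with sucrose and the highest water sample. Samples 5 and 6 of MS with sucrose were brighter than samples 1 to 4 of that group, whereas water samples 5 and 6 lay within the range of the other 4 water samples. The mean was 2.14 ± 0.435 after MS with sucrose and 0.449 ± 0.0220 in water (SD, n = 6 each), a ratio of 4.76-fold between the means and 4.11-fold between the medians. For comparison, over all probes 29.5% were higher and 4.36% lower in every MS with sucrose sample than in any water sample on the deposited scale. On that scale sample medians were higher after MS with sucrose (0.309 to 0.339) than in water (0.171 to 0.188). Neither these shares nor the intensity ratios of the 2 genes are corrected for that.

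**Figure D1:**
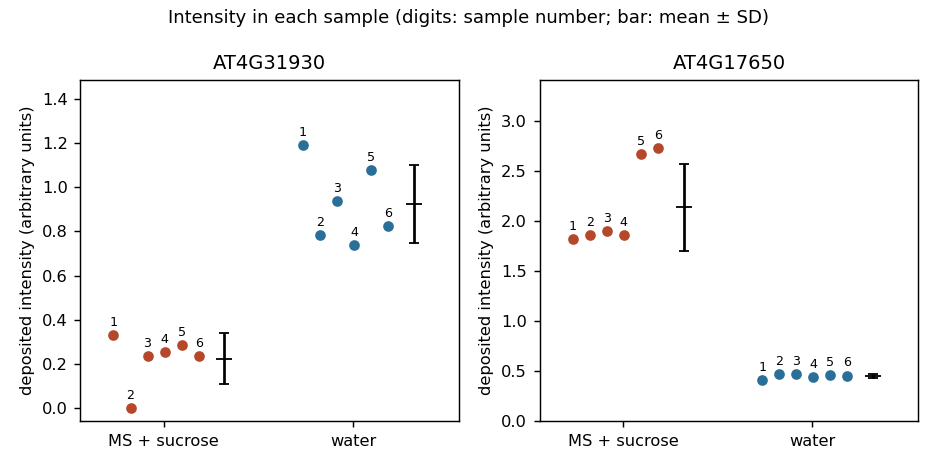
Deposited intensity (arbitrary units) of AT4G31930 (left panel) and AT4G17650 (right panel) in each sample, with MS with sucrose left of water, digits for the sample number and bars for mean ± SD (n = 6). AT4G31930 lies between 0.00 and 0.329 after MS with sucrose and between 0.739 and 1.19 in water; AT4G17650 lies between 1.82 and 2.73 after MS with sucrose and between 0.411 and 0.469 in water.

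Within its own sample, AT4G31930 sat near or below the middle of the array after MS with sucrose, and in the bright part of it in water. It was brighter than 52.0%, 0.00%, 38.5%, 41.6%, 43.9% and 38.0% of probes in MS with sucrose samples 1 to 6, against 91.1%, 86.8%, 89.5%, 86.7%, 90.0% and 87.3% in water samples 1 to 6. In units of the sample's median probe, its level was 0.704 to 1.06 in the 5 samples of MS with sucrose where it was above 0, against 4.30 to 6.95 in water. Only sample 1 of MS with sucrose was above its sample's median.

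AT4G17650 was in the bright part of the array in both groups. It was brighter than 93.0% to 95.6% of probes after MS with sucrose and than 76.1% to 79.5% in water. Its level was 6.58 ± 1.10 times the sample's median after MS with sucrose and 2.55 ± 0.146 times in water (SD, n = 6 each). The groups did not overlap for either gene by this measure, but both genes were picked from this contrast. The share of all probes without overlap by this measure was not computed.

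**Figure D2:**
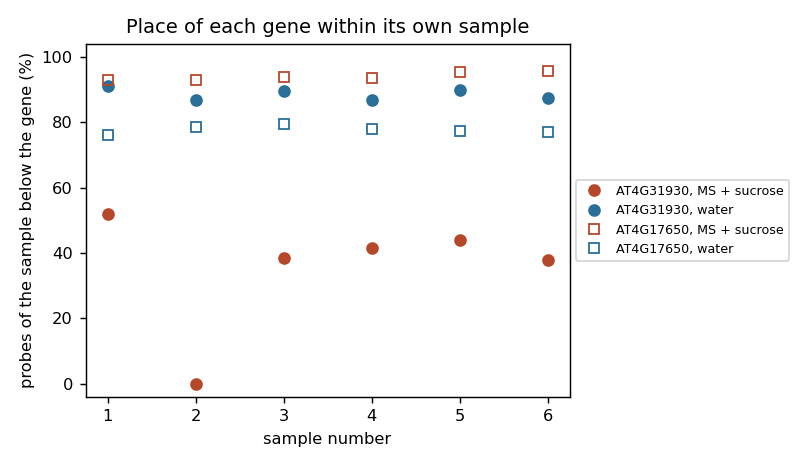
Percent of the probes of a sample that were dimmer than the gene, by sample number, for AT4G31930 (filled circles) and AT4G17650 (open squares), in MS with sucrose (red) and water (blue). AT4G31930 lies at 0.00% to 52.0% after MS with sucrose against 86.7% to 91.1% in water, and AT4G17650 at 93.0% to 95.6% after MS with sucrose against 76.1% to 79.5% in water.

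On the normalized log2 scale AT4G31930 averaged -2.22 after MS with sucrose and 0.16 in water, a difference of -2.38. It was the fifth lowest of the differences of 3439 probes and the second lowest among the 692 probes of 1 gene. AT4G17650 averaged 1.05 after MS with sucrose and -0.65 in water, a difference of 1.70, at rank 28 from the top of all probes and rank 8 among probes of 1 gene. The median difference of all probes was 0.00, with quartiles at -0.35 and 0.33. By limma's test, with Benjamini-Hochberg adjustment over all probes and a threshold of 0.05, 37.5% of all probes were called, 18.1% higher and 19.3% lower; since both genes were picked from this contrast, their own place among the calls carries no further weight.

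**Figure D3:**
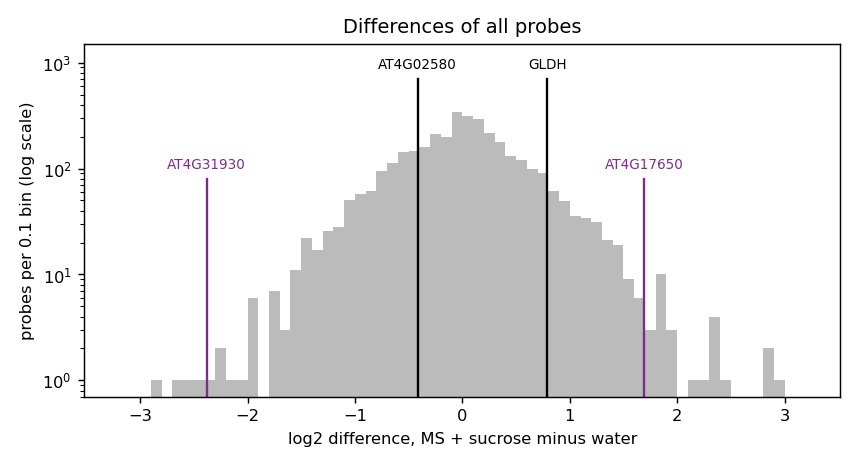
Number of probes (log axis) by log2 difference, MS with sucrose minus water, for all 3439 probes, with vertical lines at AT4G31930 (-2.38), AT4G17650 (1.70) and the complex I list genes GLDH (0.79) and AT4G02580 (-0.42). The first 2 lie in the thin tails of the distribution, and the last 2 lie within its body.

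The numbers 1 to 6 run in both groups, and same-numbered samples deviated together across probes. Samples of different number were not compared across the groups, so the pairs below are by label only. Taken by number, the differences of AT4G31930 were -2.08, -3.77, -2.28, -1.90, -2.18 and -2.06. Number 2 is the pair with the sample listed at 0, so its value depends on the offset, and the other 5 lay between -2.28 and -1.90. Those of AT4G17650 were 1.52, 1.41, 1.54, 1.58, 2.02 and 2.11, with numbers 5 and 6 above the rest. The mean of the pair differences was -2.38 ± 0.69 for AT4G31930 and 1.70 ± 0.29 for AT4G17650 (SD, n = 6 pairs).

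Spread within a group differed between the genes. AT4G31930 had an SD on the normalized log2 scale of 0.79 after MS with sucrose, where the 200 probes nearest in level had a median SD of 0.43, and of 0.22 in water, where the nearest 200 had 0.13. The first of these rests on sample 2, listed at 0: without it the SD after MS with sucrose was 0.18 (n = 5), below the median of 0.35 of its nearest 200 probes in the same 5 samples. AT4G17650 had an SD of 0.28 after MS with sucrose, where the nearest 200 had a median of 0.23, and of 0.06 in water, where they had 0.14. In water, 6.00% of the 200 nearest probes were tighter than AT4G17650. After adjacent numbers were averaged, AT4G17650 stood at 0.79, 0.96 and 1.39 after MS with sucrose, for numbers 1 and 2, 3 and 4, and 5 and 6, against -0.67, -0.60 and -0.67 in water, and AT4G31930 at -2.71, -1.99 and -1.96 after MS with sucrose against 0.22, 0.10 and 0.16 in water. Deviations of the 2 genes from their group means had an r of 0.28 over 12 samples and of -0.41 without sample 2 of MS with sucrose, so the sign rests on that 1 sample.

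Scaling changed the size of both differences but not their direction. AT4G31930 was at -1.92 on the deposited scale, -2.59 with each sample centred on its median and -2.55 with cyclic loess. AT4G17650 was at 2.06, 1.39 and 1.74 under the same 3 settings. Those scalings move the median of all probes to 0.38, -0.29 and -0.01. Relative to that median, AT4G31930 was at -2.30 (deposited scale) and -2.54 (cyclic loess), and AT4G17650 at 1.68 and 1.75. With zeros as missing, which removes sample 2, AT4G31930 was at -2.05.

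**Figure D4:**
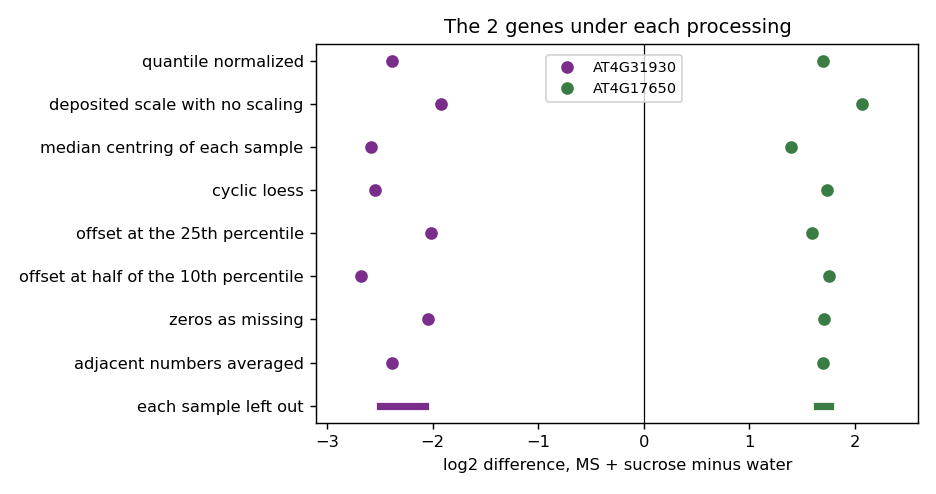
Log2 difference, MS with sucrose minus water, of AT4G31930 (purple) and AT4G17650 (green) under each scaling, offset and treatment of zeros, with adjacent numbers averaged, and, as a bar, the range when each sample is left out in turn. AT4G31930 runs from -2.68 to -1.92 and AT4G17650 from 1.39 to 2.06, on opposite sides of 0 throughout.

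The other genes of these families and pathways were hardly represented. In 15 lists with 165 genes, 5 genes other than the 2 had a probe of their own, and 14 more lay only on probes shared with other genes, which are not read here. List membership of unnamed locus tags comes from general knowledge of the plant, not from the tables. Of the 10 genes listed for the mitochondrial glycoprotein family, 1 other had a probe, AT5G02050. It was listed at 0 in 4 of 6 samples of MS with sucrose and in 5 of 6 in water, so it gives no comparison. Neither the 11 genes of ubiquinone synthesis nor the 11 of the polyketide cyclase family had a measured member besides AT4G17650.

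GLDH (AT3G47930), for the mitochondrial L-galactonolactone dehydrogenase that makes ascorbate and takes part in the assembly of complex I in plants, rose after MS with sucrose. Its intensities were 0.389, 0.444, 0.416, 0.425, 0.463 and 0.508 in MS with sucrose samples 1 to 6, against 0.120, 0.106, 0.134, 0.130, 0.0850 and 0.137 in water samples 1 to 6, with no overlap. The log2 difference was 0.79 (SE 0.09, limma adjusted p = 5.64e-05), and 6 of 6 samples lay above the water mean. The background for that call is the 18.1% of all probes that were higher. For the lack of overlap it is the 29.5% of all probes that were higher without overlap on the deposited scale. Across the alternatives the difference ran from 0.64 to 1.43, the highest on the deposited scale (all-probe median 0.38 there), and its adjusted p by limma ran from 2.38e-07 to 0.0105, the highest with adjacent numbers averaged.

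AT4G02580, listed with complex I, the entry point for electrons from NADH, was at -0.42 (SE 0.36, adjusted p = 0.412 by limma). Its intensities ran from 0.0462 to 0.701 (median 0.330) after MS with sucrose and from 0.175 to 0.502 (median 0.214) in water, so the groups overlapped. Its difference was 0.22 on the deposited scale, so no direction can be given. AT5G47030, listed with the mitochondrial ATP synthase, was listed at 0 in all 12 samples. LHB1B2 had a mean of 10.6 ± 1.95 after MS with sucrose and 13.0 ± 2.50 in water (SD, n = 6 each), which puts it at -0.28 on the normalized log2 scale (SE 0.12, limma adjusted p = 0.0956). Of the 5 listed genes, 1 was thus called higher and 0 lower, against 18.1% higher and 19.3% lower of all probes. Among the 5, AT5G02050 was listed at 0 in 9 of 12 samples and AT5G47030 in all 12. LHB1B2 was called too under median centring, at -0.96 (adjusted p = 0.000258 by limma), where the median of all probes was -0.29. Without water sample 6 it was also called, at -0.37 (adjusted p = 0.0226 by limma).

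Mitochondrial genes named in the gene table were added after the other results were known. ETFQO (AT2G43400), the electron-transfer flavoprotein:ubiquinone oxidoreductase, hands electrons from amino acid and fatty acid breakdown to ubiquinone. It was near the dim end, at 0.0890 ± 0.0657 after MS with sucrose and 0.0679 ± 0.0142 in water (SD, n = 6 each), with a log2 difference of -0.30 (SE 0.23, limma adjusted p = 0.341) that was 0.09 on the deposited scale. GLX2-1 (AT2G43430), for a mitochondrial protein of the glyoxalase II family, was at 0.0748 ± 0.0887 after MS with sucrose and 0.0585 ± 0.0470 in water (SD, n = 6 each). Its log2 difference was -0.22 (SE 0.36, limma adjusted p = 0.671). The sign turned on the deposited scale (0.0636) and with zeros as missing (0.0196), and the value ran from -0.42 without sample 5 of MS with sucrose to -0.07 without water sample 6, so no direction can be given for GLX2-1. OSB1 (AT1G47720), which binds single-stranded DNA in mitochondria, ran from 0.140 to 0.405 (median 0.205) in intensity after MS with sucrose and from 0.0704 to 0.122 (median 0.0865) in water, without overlap. In deposited intensity 29.5% of all probes were likewise higher without overlap. On the normalized scale the groups overlapped, and the difference was 0.31 (SE 0.16, adjusted p = 0.151 by limma). OSB1 passed with the sample number as a replicate block (adjusted p = 0.0344 by limma) and on the deposited scale at 0.86 (adjusted p = 0.00106 by limma). It missed the threshold after averaging adjacent numbers (adjusted p = 0.137 by limma), was at 0.20 under median centring (adjusted p = 0.393 by limma), and was at 0.17 without sample 1 of MS with sucrose (adjusted p = 0.206 by limma).

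Among the probes of 1 gene, those most like each gene were ranked by Pearson's r over the 12 samples on the normalized scale, as a description. The samples share their group, their number and the scaling, so a high r mostly reflects the difference between the groups. The 3 most like AT4G31930 were AT4G22650 (r = 0.94), AT2G26680 (r = 0.94) and AT2G23070 (r = 0.92). The last is also known as CKA4, a catalytic subunit of casein kinase 2 in plastids. With group means removed, r was 0.59 for AT4G22650, 0.64 for AT2G26680 and 0.53 for AT2G23070. Their deviations had the same sign as those of AT4G31930 in 5, 9 and 9 of the 12 samples. Within MS with sucrose all 3 were lowest in sample 2, where AT4G31930 was listed at 0. These r may therefore rest on that 1 sample, and they were not computed without it. AT4G22650 had a mean intensity of 0.318 ± 0.101 after MS with sucrose and 0.493 ± 0.0237 in water (SD, n = 6 each). AT2G26680 had 0.227 ± 0.0680 after MS with sucrose and 0.258 ± 0.0214 in water (SD, n = 6 each). AT2G23070 had 0.276 ± 0.0943 after MS with sucrose and 0.380 ± 0.0433 in water (SD, n = 6 each). For AT2G26680 and AT2G23070 the groups overlapped in deposited intensity and separated only on the normalized scale. On the deposited scale, r with AT4G31930 was lower for AT2G26680 (0.67) and AT2G23070 (0.78).

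The 3 most like AT4G17650 were AT5G65220 (r = 0.98), AT2G46850 (r = 0.97) and AT3G32930 (r = 0.97). With group means removed, r was 0.87 for AT5G65220, against 0.23 and 0.38 for the other two. AT5G65220 had intensities of 4.61, 4.32, 5.29, 5.54, 8.35 and 8.20 in MS with sucrose samples 1 to 6, against 2.42, 2.01, 1.68, 1.75, 1.94 and 1.86 in water samples 1 to 6. AT3G32930 had intensities of 1.20, 1.19, 0.999, 0.966, 1.31 and 1.33 in MS with sucrose samples 1 to 6, against 0.378, 0.354, 0.321, 0.346, 0.304 and 0.319 in water samples 1 to 6. Like AT4G17650, both were brightest in samples 5 and 6 of MS with sucrose. In deposited intensity GLDH, AT4G02580 and ETFQO were too, so this trait is not particular to the genes most like AT4G17650. AT2G46850 had a mean of 0.603 ± 0.0469 after MS with sucrose and 0.113 ± 0.0153 in water (SD, n = 6 each). It did not share the trait: within MS with sucrose, sample 5 (0.595) was below sample 4 (0.651). Among the 5 annotated neighbours on each side of either gene, 0 had a probe of their own.

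**Figure D5:**
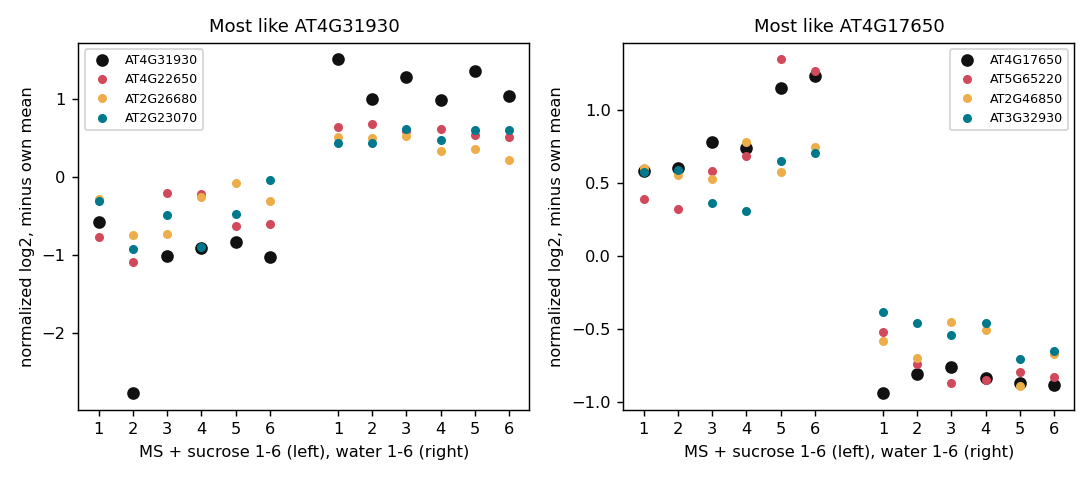
Normalized log2 level minus the gene's own mean over the 12 samples, for AT4G31930 (left panel, black) and AT4G17650 (right panel, black) with the 3 probes of 1 gene most like each (coloured), MS with sucrose samples 1 to 6 left of water samples 1 to 6. Both panels separate the groups, which the choice of genes by r largely fixed. In deposited intensity the groups overlap for AT2G26680 and AT2G23070. AT4G17650, AT5G65220 and AT3G32930 are each highest in samples 5 and 6 of MS with sucrose, and AT2G46850 is not. With group means removed, r with AT4G17650 is 0.87 for AT5G65220 and 0.38 for AT3G32930.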

How the data were processed

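RNA was measured on arrays in 12 samples, grouped by their titles into 6 of MS with sucrose and 6 of water. The deposited values are linear intensities; background correction and scaling by the authors: not given in the sources used here. Exact zeros make up 13.6% of values, and 2 to 8 probes a sample sit at a common ceiling. The number of arrays limits the precision. Intensities were used as log2(intensity + 0.0718), the offset being the 10th percentile of values above 0, and quantile normalized. The fit covered all 3439 probes and used limma 3.58.1 under R 4.3.3 (lmFit, then eBayes with trend, two-sided, Benjamini-Hochberg adjustment over all probes, threshold 0.05). On simulated data with 200 changed probes, independent errors and 10 runs, the fit recovered 79.1% of log2 changes of size 1 and 37.2% of those of size 0.5, and 5.97% of calls were false. The real data differ from that setting: 37.5% of probes were called, exact zeros occur and deviations correlate between samples. These rates may therefore not hold for them.

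Probe genes come from the platform annotation (692 probes with 1 gene, 870 with several, 1877 unnamed), and 690 of the 692 were found in the gene table of TAIR10.1, used for names and neighbours only. Named are the 2 genes, every listed gene with its own probe, the 3 most alike probes and measured neighbours. The 2 genes and the lists were chosen with earlier results of these data known. Same-numbered samples of the groups correlated at 0.174 to 0.390 in their deviations across probes. Samples of different number were not compared across the groups, so whether the numbers pair the samples was not tested. Adjacent numbers within a group also correlated, at 0.121 to 0.309, so standard errors and adjusted p-values that take 12 independent samples may be too small. Alternatives covered scaling, offset, zeros, dim probes, variance trend, the number as a block, averages of adjacent numbers and each sample left out. Figures were drawn with matplotlib 3.10.9.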

Additional observations from a re-analysis of the deposited data

Results flagged for a closer look

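In 28 sets of 6 samples, for 14 of the named genes in each group, 1 sample stood far from the other 5 in 3 sets, where chance gives about 1.4. The 14 are not all the named genes: AT5G02050, listed at 0 in 9 of 12 samples, is not counted. AT5G47030, listed at 0 in all 12, has no range by which a gap could be measured. AT4G31930 was lowest in sample 2 of MS with sucrose, at a listed 0 against 0.235 to 0.329 in the other 5, a gap of 0.796 of the range on the normalized log2 scale. OSB1 was highest in sample 1 of MS with sucrose, at an intensity of 0.405 against 0.140 to 0.238, a gap of 0.679 of the range. AT5G65220 was highest in water sample 1, at 2.42 against 1.68 to 2.01, a gap of 0.633 of the range.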

How the results depend on the processing

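Both genes kept their direction under every alternative run. AT4G31930 ran from -2.50 to -2.07 with each sample left out and from -2.68 to -1.92 under the others. AT4G17650 ran from 1.64 to 1.77 with each sample left out; it moved beyond the spread between samples on the deposited scale (2.06) and under median centring (1.39). The 1289 called probes became 751 with adjacent numbers averaged (349 higher, 402 lower), 1138 to 1283 with each sample left out, and 1316 with the sample number as a replicate block. The deposited scale gave 1519 higher and 237 lower (86.5% higher) and median centring 487 higher and 1271 lower (27.7% higher), against 624 and 665 (48.4% higher) after quantile normalization. Of the 5 listed genes 1 was called in the main fit, where 37.5% of all probes were called. The count was 1 to 2 with each sample left out and 3 under median centring. Under that centring AT5G47030, at 0 throughout, is moved by the centring itself and LHB1B2 was at -0.96. The sign turned on the deposited scale for AT4G02580 (0.22), ETFQO (0.0869) and GLX2-1 (0.0636), and for GLX2-1 with zeros missing (0.0196); the cause was not tested. Among the tested genes with values above 0, the replicate block changed the call of OSB1 only. Averaging several probes of a gene was not run, since no listed gene had more than 1.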
